A study of Caenorhabditis elegans with 2 samples.

Results

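Of the 2689 genomic regions in the pooled list of a chromatin immunoprecipitation experiment on the nematode Caenorhabditis elegans, 372 had their summit in an exon away from promoters (13.8%, exact 95% interval 12.6 to 15.2%). A summit is the single base that the authors' peak caller marked as the strongest point of a region. A region was taken as exonic when its summit lay in a coding exon or an untranslated region (UTR) of a protein-coding gene. It also had to lie outside every promoter window of a protein-coding gene, which here runs from 1000 bp before the annotated 5′ end to 200 bp inside the gene. The other pooled regions had their summit in a promoter window (1027), in an intron (635) or in intergenic sequence (655). All positions are in ce11 (WBcel235).

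The protein under study was Y116A8C.19, which the reference annotation describes as having a C3H1-type zinc finger domain. Worms of strain OP532, of genotype unc-119(tm4063) III with the integrated transgene wgIs532, stably made the protein with a GFP-FLAG tag at its C-terminal end. Whole hermaphrodite L1 larvae were taken 6 hours after release from starvation following bleaching, their chromatin was sonicated and the tagged protein was pulled down with an antibody against GFP. There was 1 group with 2 biological replicates, and both replicates came from a single transgenic line. A list was deposited for each replicate, beside the pooled list called on both and a list thresholded by the irreproducible discovery rate (IDR). The replicate lists hold peaks together with background, 22595 regions for replicate 1 and 22358 for replicate 2. Read depth behind the lists is unknown, and a matched control experiment was not analysed here. With no second condition, the comparisons are between exonic and other regions and between the replicates, and intervals cover the counting error of regions only.

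Sequence-specific factors usually act from promoters and enhancers, and in the compact worm genome most such sites lie just upstream of genes. Exons are copied into RNA, and regions called inside them in such experiments can mark internal promoters or enhancers, or stretches of open and heavily transcribed chromatin that immunoprecipitate without specific binding. In worms, trans-splicing replaces the first stretch of many transcripts, so transcription can start upstream of the 5′ end that an annotation shows. C3H1 zinc fingers are best known in the worm from RNA-binding proteins of the early germ line.

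The DNA under the 4 strongest exonic summits is shown because they lead the values below. Each is 30 bases of the plus strand around the summit in lower case, in the order of their signal. Positions are chrIII:3456410-3456439 for C34C12.2, chrV:6221323-6221352 for W06H8.6, chrIV:5188060-5188089 for mtrf-1L and chrIII:6421226-6421255 for C05D11.8.
C34C12.2: cagactttttgcgcgatgcaagcgcgctcc
W06H8.6: agaaataagacactattggggggaaaggga
mtrf-1L: tacggatgacacataaagagacgggaattg
C05D11.8: cgtctccacggcgtcagacactgtctaact
No copy of the 8-base elements of the strongest peaks, described later, lay within 75 bp of any of these 4 summits. The next set gives 4 examples of exonic regions that did carry one, all among the 1000 strongest pooled regions, with the copy in capitals and written on the strand that carries it. Positions are chrX:861337-861366 on the minus strand for F56F10.2, chrII:13835168-13835197 for ins-37, chrIII:9767278-9767307 for cbp-1 and chrV:18711469-18711498 for Y17D7C.6.
F56F10.2: ggaacattcctCTAGTCCAaagtctgttac
ins-37: ccgggattcttCTAGGCCGccgccggcgcc
cbp-1: aaccaccaggcCCAGGCCAaccacaaatgc
Y17D7C.6: gcaacaataatGGGTACACtttgatcaagc
Each of these 4 copies differs at 1 base from its element, GAGTACAC for Y17D7C.6 and CTAGGCCA for the other 3.

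Exonic regions sat low in the pooled list. The authors' signal, whose scale is not given in the sources used here, had a median of 26.9 over the 372 exonic regions (range 24.6 to 85.1), against 30.1 in promoter windows, 27.6 in introns and 27.8 in intergenic sequence. Their median signal rank, with 1 as the strongest, was 1678, against 960 for promoter windows, 1506 for introns and 1453 for intergenic regions, and 1345 over all pooled regions. Of the exonic regions, 80 (21.5%) were among the 1000 strongest, where 37.2% of all pooled regions were. The same share was 51.1% in promoter windows, 29.4% in introns and 31.8% in intergenic sequence. The exonic share of the pooled list, 13.8%, was below the 22.97% of nuclear genome bases that lie in exons outside promoter windows. Promoter windows held 38.2% of regions on 21.5% of bases.

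The exonic share of the pooled list climbed as the signal weakened. In the top bin, as long as the IDR list, 1 region was exonic (0.505%, exact 95% interval 0.0128 to 2.78%). The share was 5.63% up to rank 500, 12.4% from there to rank 1000, 15.4% to rank 1500, 17.8% to rank 2000 and 18.3% beyond it. Each replicate list, followed further down, also started low and ended high. In the list of replicate 1 the share was 0.505% in the top bin and 24.4% past rank 15000 (interval 23.4 to 25.4%). In that of replicate 2 it was 2.02% in the top bin, had already reached 15.2% between the top bin and rank 500, and was 21.0% past rank 15000. Over the whole nuclear lists the exonic shares were 22.5% for replicate 1 and 20.7% for replicate 2, close to the 22.97% of genome bases.

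**Figure D1:**
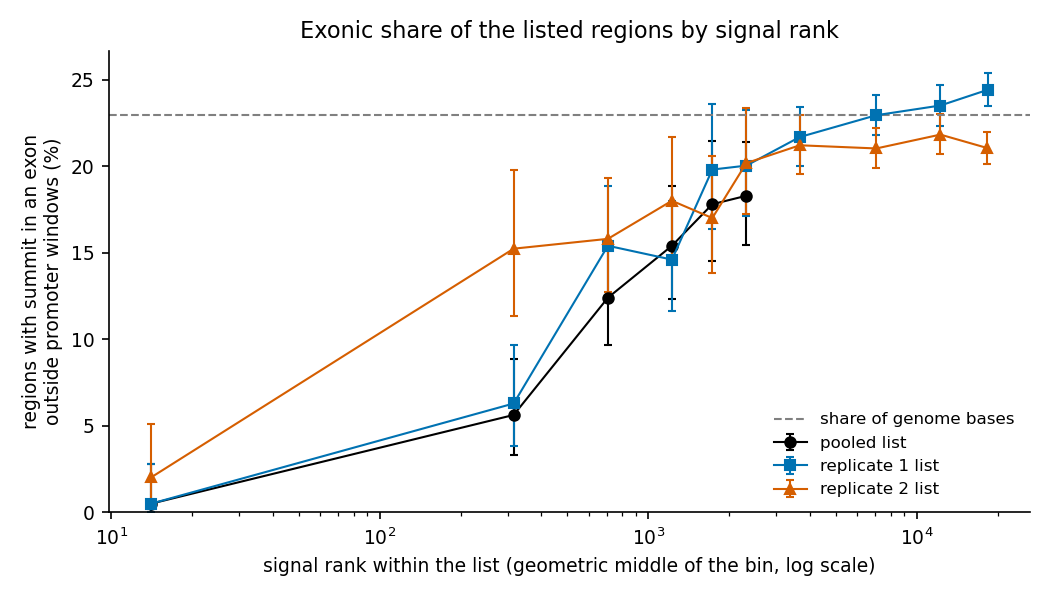
Share of regions with an exonic summit (%, vertical axis) against signal rank within each list (log scale, horizontal axis, at the geometric middle of each bin), for the pooled list and both replicate lists. Bars are exact 95% intervals and the dashed line is the share of genome bases (22.97%); the share starts at 0.505% in the pooled list and at 2.02% in replicate 2, and nears the line only among weak regions.

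The authors' q-value ran nearly in the order of the signal, so the counts by q and by IDR list below restate the same ranking. Of the exonic regions 2 (0.538%, exact 95% interval 0.0652 to 1.93%) had a q of at most 0.05, where 11.9% of all pooled regions did. Their median q was 0.828. In the IDR list, which holds the strongest pooled regions, there was 1 exonic region (0.269%, interval 0.00681 to 1.49%), against 7.36% of all pooled regions and 154 of the 1027 in promoter windows.

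Exonic summits on the 2 sides of a window boundary overlapped in signal. Within 100 bp outside the upstream edge 5 exonic regions had signals of 26.1 to 32.0, and within 100 bp inside it there were 3, of 27.0 to 29.2. At the downstream edge 16 exonic regions just outside had signals of 24.6 to 35.2 (median 27.2), and 26 exonic summits just inside had signals of 24.6 to 137.1 (median 26.5). In all, 172 exonic summits lay inside promoter windows and were not counted as exonic here.

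Coding sequence held most of the exonic regions. Summits lay in coding exons in 311 regions (83.6%), in 3′ UTRs in 39 (10.5%) and in 5′ UTRs in 22 (5.91%), where the exonic bases outside windows split into 86.1% coding, 10.3% 3′ UTR and 3.57% 5′ UTR. The 3′ UTR regions were the strongest kind, with a median rank of 1070 against 1507.5 for 5′ UTRs and 1751 for coding exons, and 19 of the 39 (48.7%) were among the 1000 strongest against 58 of 311 coding regions (18.6%). The list of replicate 1 showed the same pattern, and that of replicate 2 did not among its 1000 best. Among exonic regions in the 1000 best of each list, 3′ UTRs held 20 of 97 in replicate 1 (20.6%) and 14 of 129 in replicate 2 (10.9%), against 11.2% of exonic regions over the whole list of replicate 1 and 11.7% over that of replicate 2. In the best 2689 of replicate 2 the 3′ UTR share of exonic regions was 14.7%. For 25 of the 39 pooled 3′ UTR regions the nearest protein-coding 5′ end belonged to another gene. The summit lay within 2000 bp upstream of another gene's 5′ end in 11 of the 39, and in 61 of the 311 coding regions. Whether these 5′ ends play a part in the signal was not tested.

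Most exonic summits lay deep inside multi-exon genes, which the rule favours because it leaves out the first 200 bp of every gene. How exonic bases outside windows split by exon order or place along the gene was not computed. Among the 371 regions in transcripts with several exons, 249 (67.1%) lay in an internal exon, 91 (24.5%) in the last and 31 (8.36%) in the first. The median distance from the annotated 5′ end of the host gene, the gene whose exon held the summit, was 1812.5 bp, and the median place was 61.9% of the way along the gene. Signal did not order by that distance. The share among the 1000 strongest was 21.9% for summits 201 to 1000 bp from the 5′ end, 16.5% from 1001 to 2000 bp, 19.2% from 2001 to 5000 bp and 29.9% beyond 5000 bp. In 357 regions the summit was exonic in every transcript that spanned it.

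Some of the regions lay close to starts that the rule did not use. For 34 of the 372 the summit fell in the same window around the 5′ end of another annotated transcript of a protein-coding gene. For 46 (12.4%) it fell in that window around a coding start, among them 18 of the 22 in 5′ UTRs. Over all pooled regions, those in promoter windows included, that share was higher, at 42.2%. A non-coding gene was annotated at the summit of 5 exonic regions. Shares of all pooled regions are not given here for transcript 5′ ends or non-coding genes.

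**Figure D2:**
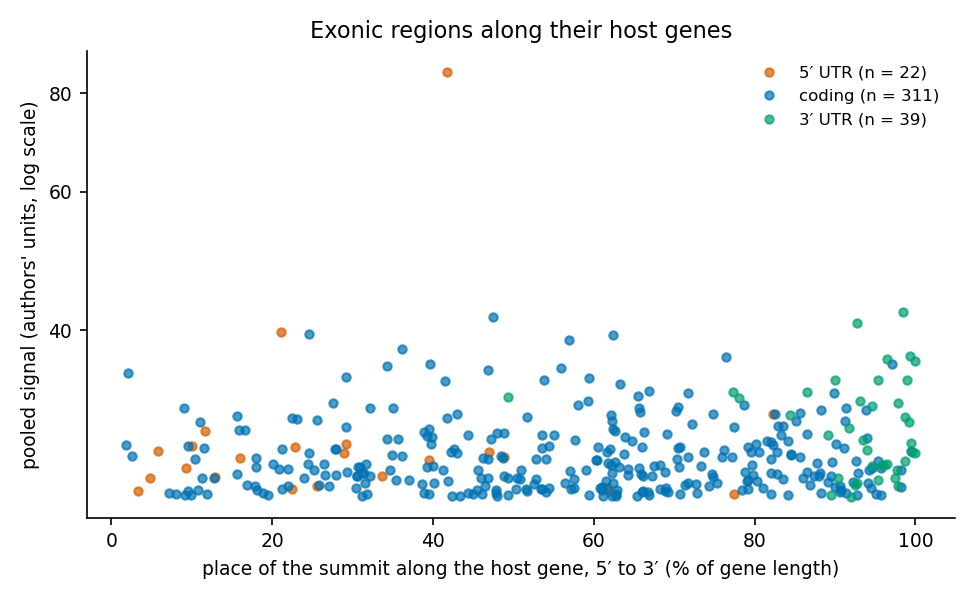
Pooled signal (authors' units, log scale, vertical axis) of each of the 372 exonic regions against the place of its summit along the host gene from 5′ to 3′ (% of gene length, horizontal axis), coloured by kind of exon. All points but 1 lie between 24.6 and 42.2; the point at 85.1 is the 5′ UTR region of C34C12.2.

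The strongest exonic region stood apart from the rest. It lay at chrIII:3456230-3456619, in the 5′ UTR of C34C12.2, which is annotated as encoding a protein with a fibronectin type III domain. Its pooled signal was 85.1 (rank 76), and it was the 1 exonic region in the IDR list, with a q of 0.0022. The list of replicate 1 gave it a signal of 50.4 (rank 86) and that of replicate 2 a signal of 23.1 (rank 187), so it was among the strongest regions of both. The next exonic region had a pooled signal of 42.2.

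The annotation around this region is unusual. Its summit lay 2639 bp from the annotated 5′ end of C34C12.2 but 175 bp before the coding start of that gene. The first exon of the annotated transcript is 2829 bp long and spans all of C34C12.1 on the same strand, a gene annotated as encoding an autophagy-related protein 14. The summit was 575 bp past the 3′ end of C34C12.1. By its distance to the coding start it would count as a promoter region, and by the annotated 5′ end it does not.

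Next came a region at chrV:6221143-6221532 in the 3′ UTR of W06H8.6, annotated as encoding a protein with a basic helix-loop-helix domain. Its pooled signal was 42.2 (rank 317) and its q 0.049, with signals of 26.3 in replicate 1 (rank 415) and 20.5 in replicate 2 (rank 283). The summit was 89 bp before the 3′ end of the gene, and the non-coding gene W06H8.5 is annotated over it on the same strand. A second exonic region of W06H8.6, with its summit 221 bp away, had rank 1707 and matched the same region in each replicate list, so the pair is a single site there. W06H8.6 also held an intronic IDR region of rank 111 and an IDR region of rank 129 in its promoter window.

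Below these, the signals of the strongest regions fell off in small steps. The remaining 18 of the top 20 had pooled signals of 34.9 to 41.5, below 55.04, the weakest signal of the IDR list. Those with summits in coding exons were in mtrf-1L (rank 332), which encodes a mitochondrial peptide chain release factor, gasr-8 (370), the F-box gene F56F10.2 (372), C34B4.2 (384), which has a fork-head domain, and ntl-4 (417), a subunit of the CCR4-NOT complex. Further coding regions were in the chemoreceptor gene str-217 (439), the patched-related gene ptr-23 (473), the insulin-like gene ins-37 (476) and doxa-1 (480), which encodes a dual oxidase maturation factor. The last were in pks-1 (486), cyc-1 (494), which encodes cytochrome c1 of the respiratory chain, the Integrator subunit gene ints-4 (512) and vha-13 (527), a subunit of the vacuolar proton pump.

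Of these 18, 4 lay in 3′ UTRs and 1 in a 5′ UTR. The 3′ UTR regions belonged to C05D11.8 (rank 340), clec-161 (438), which encodes a C-type lectin, fem-3 (449), a gene of germ line sex determination, and atl-1 (459), the worm ATR checkpoint kinase. The 5′ UTR region belonged to egl-30 (363), which encodes the alpha subunit of the G protein Gq, and its gene also held an IDR region of rank 125 in the promoter window.

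**Figure D3:**
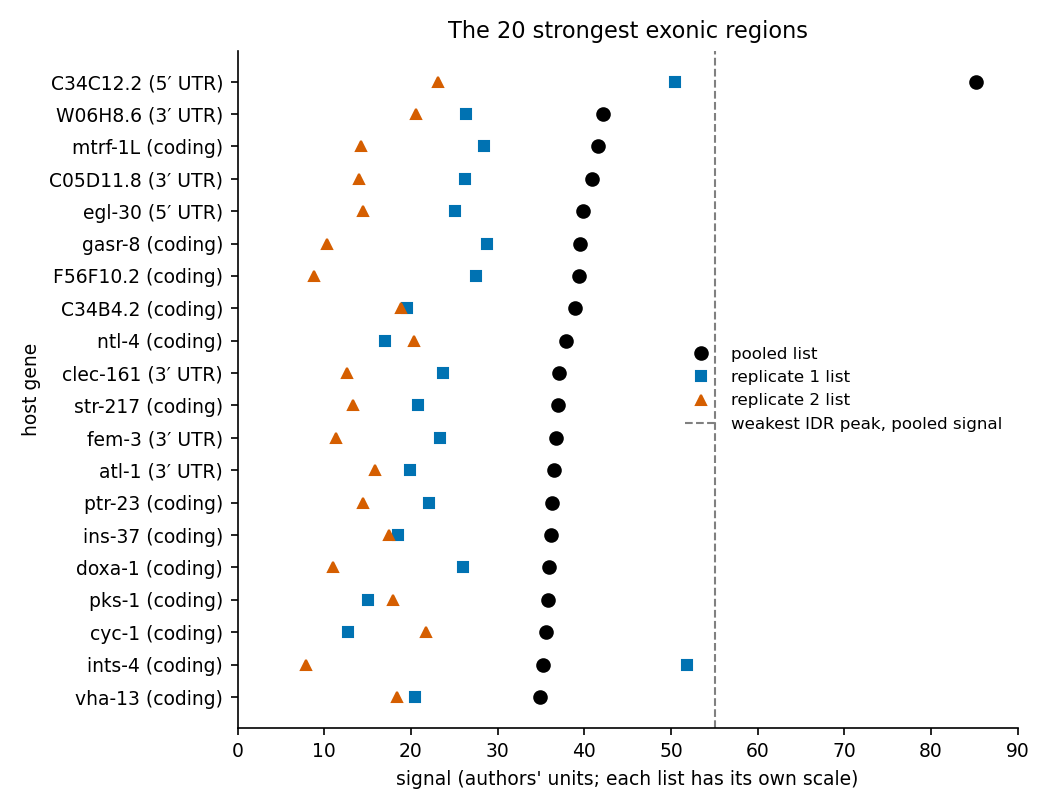
Signal (authors' units, horizontal axis, starting at 0) of the 20 strongest exonic regions in the pooled list and in each replicate list, with host genes down the page in order of pooled signal. C34C12.2 at 85.1 is the only pooled point right of the dashed line, the weakest signal in the IDR list (55.04); the 3 lists have separate scales, and points of different lists are not comparable in size.

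All of the top 20 overlapped a region in both replicate lists, and 2 of the 20 overlapped a strong one in both. Within the 1000 best regions there were 13 of the 20 in replicate 1 and 8 in replicate 2, and only C34C12.2 and W06H8.6 in both. Over all pooled regions the shares within the 1000 best were 31.6% in replicate 1, 24.4% in replicate 2 and 11.9% in both. Most of those regions are weaker than these 20, which all had a pooled rank of 527 or better. Shares for pooled regions of like rank were not computed, so the 2 of 20 cannot be set against them. The region of cyc-1 had signals of 12.8 in replicate 1 (rank 9104) and 21.7 in replicate 2 (rank 234). That of F56F10.2 had the opposite order, 27.5 in replicate 1 (rank 357) and 8.78 in replicate 2 (rank 14327). Each of them was thus high in one list and low in the other.

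The most uneven region of the top 20 shared its match with a promoter. The region of ints-4 had signals of 51.9 in replicate 1 (rank 80) and 7.85 in replicate 2 (rank 19603). Its summit was 233 bp from the annotated 5′ end of ints-4, just outside the promoter window, and 173 bp from the summit of the matched region in replicate 1. It overlapped a stronger pooled region of rank 199 (signal 54.9) in the promoter window of ints-4, with summits 199 bp apart. Of the 372 exonic regions 4 overlapped a stronger pooled region of another class in this way.

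Over all members, presence in the replicate lists was a little below that of the pooled list at large. A region of replicate 1 overlapped 339 of the 372 by at least 1 bp (91.1%, exact 95% interval 87.8 to 93.8%), against 94.3% of all pooled regions. A region of replicate 2 overlapped 300 (80.6%, interval 76.3 to 84.5%), against 83.3% of all. Both lists held 267 (71.8%, interval 66.9 to 76.3%), against 77.6% of all pooled regions, 82.5% of those in promoter windows, 75.4% in introns and 75.6% in intergenic sequence. Replicate 1 alone held 72 and replicate 2 alone held 33. Exonic regions in both lists had a median pooled rank of 1511, against 1984.5 for replicate 1 alone and 2021 for replicate 2 alone. Presence was not compared between classes at like rank. The counts of presence describe the lists, since the pooled list was called on the same reads.

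Overlap was more common than strength in both replicates. The matched regions had a median rank of 2913 in replicate 1 and 4225.5 in replicate 2, against 1967.5 and 2999.5 over all pooled regions. Within the 1000 best of both lists there were 3 exonic regions at 2 sites (0.806%), where 11.9% of all pooled regions and 20.9% of those in promoter windows were. These were the region of C34C12.2 and both regions of W06H8.6. A further 80 exonic regions (21.5%) were within the 1000 best of one list and either past rank 5000 or absent in the other, 49 of them high in replicate 1 and 31 in replicate 2. That share was near the 23.5% of all pooled regions and the 24.3% in promoter windows. Only regions within the 1000 best of either list could be counted so. Of the 112 such exonic regions 71.4% were uneven in this way, against 53.3% over all pooled regions. The same share was 43.2% in promoter windows, 62.6% in introns and 59.7% in intergenic sequence. Exonic regions were also the weakest class in the pooled list, and the shares were not compared at like pooled rank.

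Ranks in the replicates did not rise together among exonic regions. Across the 267 present in both lists the Spearman correlation of the signals was -0.24, against 0.39 in promoter windows (847 regions), -0.06 in introns (479), 0.03 in intergenic sequence (495) and 0.15 over all 2088 pooled regions present in both. The regions entered these lists by their combined signal and some share a matched region, so these values are descriptions. Most matched summits lay near the pooled summit, at a median of 18 bp in replicate 1 and 33 bp in replicate 2. Over all pooled regions these medians were 16 and 31 bp. Summits were over 100 bp apart for 50 of 339 in replicate 1 and 71 of 300 in replicate 2. The matched region had its own summit in an exon for 291 of 339 in replicate 1 and 245 of 300 in replicate 2. In both lists 188 regions had an exonic summit. How often the class changed over all pooled regions was not computed.

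**Figure D4:**
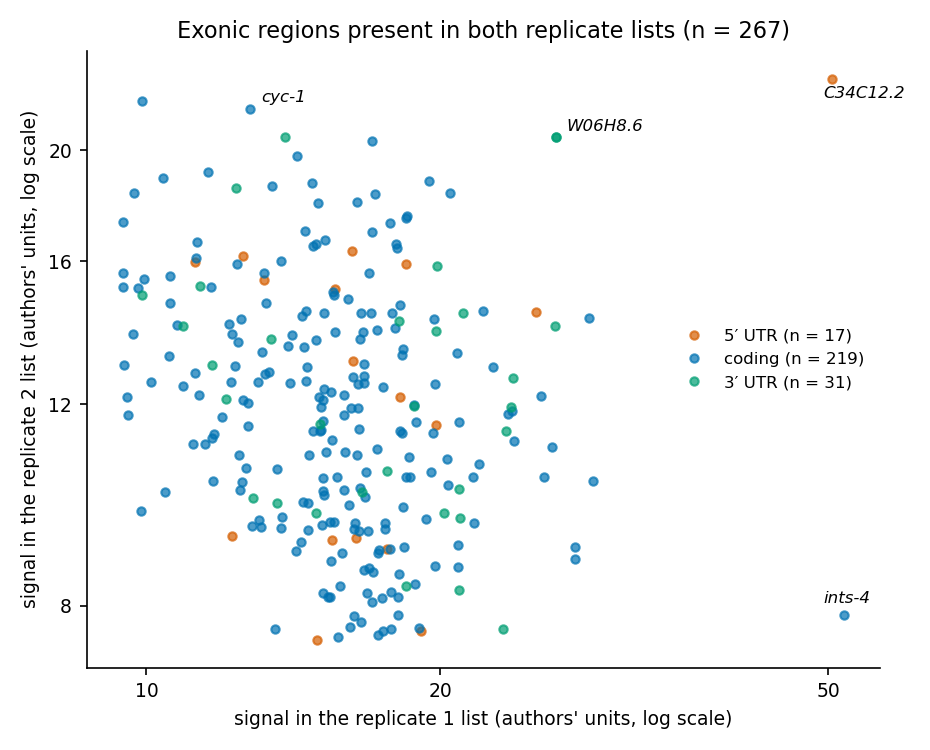
Signal in the replicate 2 list (authors' units, log scale, vertical axis) against signal in the replicate 1 list (authors' units, log scale, horizontal axis) of the 267 exonic regions present in both, coloured by kind of exon. C34C12.2 lies alone at the upper right and W06H8.6 next to it, with 2 overlapping points; ints-4, high in replicate 1 only, is matched there to a region 173 bp from its own summit.

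Another 5′ UTR region was strong in a single replicate. That of C38C3.6 at chrV:1485834-1486223, 5581 bp from the annotated 5′ end and 371 bp before the coding start, had a pooled signal of 31.3 (rank 800). It had no match in replicate 1 and a signal of 24.1 in replicate 2 (rank 165). C38C3.6 was named after its values were seen.

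The exonic regions were spread over many genes. They fell in 368 host genes, 1.84% of the 19985 annotated protein-coding genes, and 3 summits lay in exons of a pair of overlapping genes. None of the hosts had 3 or more exonic regions, and 7 had 2. These 7 included unc-62, which encodes a homeodomain factor of the Meis family, with a pair of 5′ UTR regions of ranks 1380 and 1519, and egl-2, which encodes a potassium channel, with ranks 1859 and 2634. The others were pqn-87, the zinc transporter gene zipt-17, tag-278, ceh-93 and W06H8.6. The 2 regions of ceh-93 overlapped, with summits 204 bp apart. They matched the same region of replicate 1 (rank 420) and none of replicate 2, so they too are a single site. The 7 hosts with a pair, apart from W06H8.6, were named after their values were seen.

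Some hosts also had a region at their promoter. Of the 368 hosts 42 (11.4%) had a pooled region in their own promoter window, against 6.66% of all protein-coding genes, and 6 (1.63%) had an IDR region there, against 1.18%. The 6 were egl-30, W06H8.6, gei-4, pdi-6, F13C5.2 and F13A7.14, and their promoter regions ranked between 35 and 184. Of these, gei-4, F13C5.2 and F13A7.14 were named after their values were seen. At cbp-1, which encodes the CBP/p300 histone acetyltransferase, the exonic region ranked 732 and the promoter region 235. At hsp-1, the constitutive HSP70 chaperone gene, the exonic region ranked 710 and the promoter region 248. Host genes were longer than protein-coding genes in general, with a median of 3655 bp over the exonic regions against 2026 bp, and the part of gene length in these counts was not tested.

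Host genes were counted in 23 gene lists, of which 14 held a host and 9 held none. Hosts made up 4 of 57 chromatin genes (7.02%, exact 95% interval 1.95 to 17.004%), 3 of 41 body wall muscle genes (7.32%, 1.54 to 19.9%) and 2 of 27 intestine genes (7.41%, 0.910 to 24.3%), against 1.84% of all protein-coding genes. The intervals are wide, and those of the muscle and intestine lists reach below the share of all genes. That of the chromatin list starts just above it, at 1.95%, and is not adjusted for the 23 lists counted. The chromatin hosts were led by cbp-1 (signal 31.8), met-1 (31.4), a histone H3 lysine methyltransferase, and epc-1 (31.1), the enhancer of Polycomb homolog. Their signals were 11.2 in replicate 1 and 16.1 in replicate 2 for cbp-1, and 18.2 in replicate 1 and 14.7 in replicate 2 for met-1. For epc-1 they were 17.8 in replicate 1 and 14.4 in replicate 2. The region of met-1 ranked 1813 in replicate 1 and 1639 in replicate 2, and that of epc-1 ranked 2029 and 1798. The region of cbp-1 ranked 14029 in replicate 1 and 948 in replicate 2, so it was high in one list only.

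Each tissue list held 3 hosts or fewer. The muscle hosts were egl-19 (32.0), the voltage-gated calcium channel, unc-89 (29.9), the worm obscurin, and lam-1 (27.6), a laminin subunit. The regions of egl-19 and unc-89 were within the 1000 best of replicate 1 (ranks 651 and 514) and had no match in replicate 2. Intestine hosts were ifo-1 (26.9), which encodes the intestinal filament organizer, and ifb-2 (26.2), which encodes an intermediate filament protein. Of 56 neuron genes 2 (3.57%) were hosts, unc-64 (33.4), which encodes syntaxin, and unc-25 (26.5), which encodes glutamic acid decarboxylase. Of 43 germ line genes 2 (4.65%) were hosts, syp-1 (25.3) of the synaptonemal complex and car-1 (25.1). No host was found among 32 hypodermis and 20 pharynx genes.

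Collagens, which build the cuticle, had 5 hosts of 178, with col-99 (30.6), col-68 (29.2) and col-135 (25.9) the strongest. Nuclear receptors had 7 of 274, led by nhr-71 (32.4), nhr-105 (31.2) and nhr-119 (30.01), and homeobox genes 3 of 101, unc-62 (28.0), ceh-93 (27.6) and ceh-10 (27.4). Shares of these lists, 2.81%, 2.55% and 2.97%, lay near that of all genes. The C3H1 zinc finger genes, the family of Y116A8C.19, had 0 of 25.

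Among lists of housekeeping functions, ribosomal proteins had 0 hosts of 82, with an exact interval up to 4.40%, and histones 0 of 61. Chaperones had 2 of 45, hsp-1 (32.0) and pdi-6 (25.1), and splicing factors 2 of 69, sfa-1 (30.4) and mog-5 (24.8). Oxidative phosphorylation had 2 of 53, cyc-1 (35.6) and sdhb-1 (29.3), a subunit of succinate dehydrogenase. Translation factors had 1 of 45, eif-2alpha (27.3), the proteasome 1 of 33, rpn-7 (26.1), and aminoacyl tRNA synthetases 1 of 32, vars-1 (24.96). Tubulins and actins (21), vitellogenins (6) and major sperm proteins (44) had none.

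The 8-base elements of the strongest peaks lay in few exonic regions. The elements GAGTACAC and CTAGGCCA were taken from IDR peaks of odd rank, and were sought with up to 1 mismatch on either strand within 75 bp of the summit. Of the 372 exonic regions 37 held either element (9.95%, exact 95% interval 7.10 to 13.4%), against 15.5% of all pooled regions, 22.01% of those in promoter windows, 13.4% in introns and 10.7% in intergenic sequence. These shares include the IDR peaks from which the elements were taken. Outside the IDR list 37 of 371 exonic regions held one (9.97%), against 12.6% of all pooled regions, 15.9% in promoter windows, 12.1% in introns and 10.3% in intergenic sequence, so the gap was smaller and the share of all pooled regions lay within the exonic interval given above. Windows of the same length 500 bp to either side of the exonic summits held one in 90 of 744 cases (12.1%), also within that interval. GAGTACAC lay in 23 exonic regions (6.18%), against 9.33% of all pooled regions and 33.3% of IDR peaks of even rank. CTAGGCCA lay in 17 (4.57%), against 8.48% of all pooled regions and 37.4% of IDR peaks of even rank, and 3 exonic regions held both.

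Exact copies were almost absent. With no mismatch allowed, 1 exonic region held an element (0.269%, exact interval 0.00681 to 1.49%), against 4.65% of all pooled regions, with 100 promoter regions (9.74%), 12 intronic (1.89%) and 12 intergenic ones (1.83%). It lay in a coding exon of srw-88, which encodes a G protein-coupled receptor, at rank 990, with signals of 16.7 in replicate 1 (rank 2805) and 12.5 in replicate 2 (rank 3732). The shares for exact copies again include the IDR peaks from which the elements were taken. IDR peaks held 71 of the 125 pooled regions with an exact copy. With up to 1 mismatch, 10 of the 80 exonic regions among the 1000 strongest held an element, and so did 27 of the other 292. No 5′ UTR region held an element, nor did C34C12.2. The gene srw-88 was named after its values were seen, as were Y17D7C.6 and those shown only for an element.

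**Figure D5:**
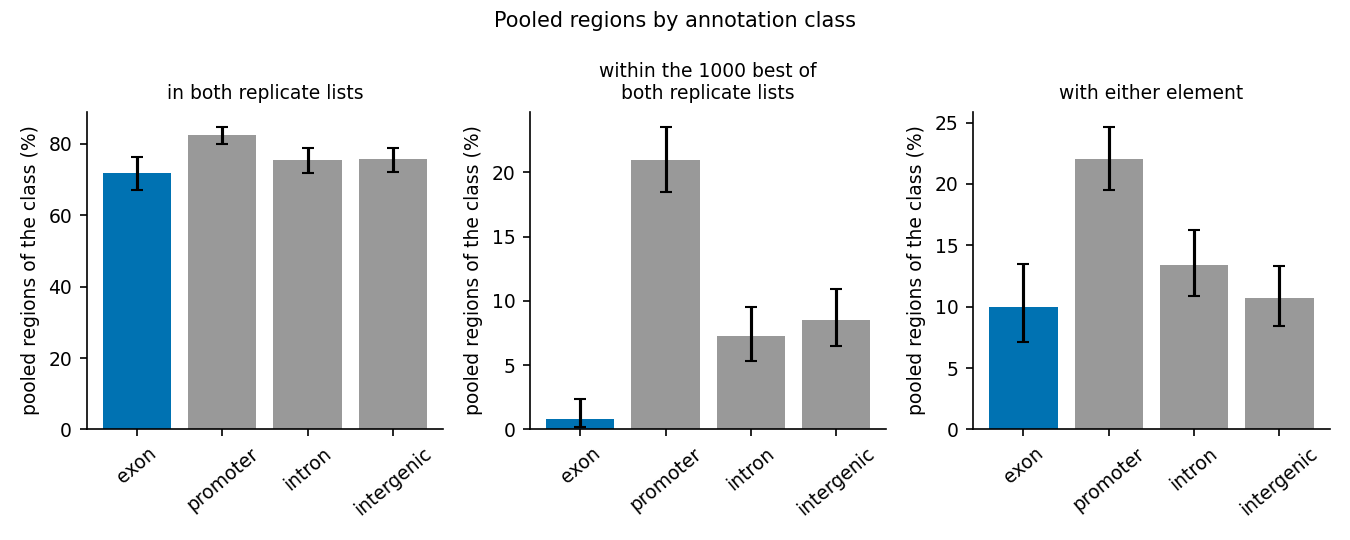
Share of pooled regions of each annotation class (%, vertical axes, starting at 0) that were present in both replicate lists, were within the 1000 best of both, and held either 8-base element with up to 1 mismatch, with exonic regions at the left of each panel. Bars show exact 95% intervals; exonic regions were at 71.8%, 0.806% and 9.95%, and promoter regions at 82.5%, 20.9% and 22.01%.

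Exonic regions were the richest class in GC. Their median GC content was 37.3%, against 35.4% in promoter windows, 35.6% in introns and 35.1% in intergenic sequence. Sequence of 31 bases or more that occurs again elsewhere in the nuclear genome was found in 27 exonic regions (7.26%, exact 95% interval 4.84 to 10.4%), against 14.3% of all pooled regions and 10.2% of those in promoter windows. In none did it cover more than 50% of the 31-base words, as it did in 22 of all pooled regions. The class is defined by its place in exons, and GC content and repeats of all exonic bases outside windows were not computed. These values therefore do not set the regions apart from exonic sequence in general.

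Exonic regions were sparser in the exonic sequence of chromosomes I and II than in that of the other chromosomes. They numbered 12.5 per Mb of exonic sequence outside windows on chromosome I and 12.4 on II, against 18.1 on III, 18.0 on IV, 17.5 on V and 18.2 on X. The counts behind these were 46, 46, 60, 66, 86 and 68. All pooled regions also had their lowest counts on I (393) and II (377), not scaled by sequence length. Of the pooled regions on chromosome I 11.7% were exonic (exact 95% interval 8.70 to 15.3%) and on II 12.202% (9.07 to 15.9%), and both intervals hold the 13.8% of the whole list.

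Neither Y116A8C.19, the tagged gene, nor unc-119, mutated in the strain, held an exonic region. No pooled region or region of either replicate lay in Y116A8C.19 itself (chrIV:17039055-17039645, minus strand), although the strain has extra copies of its sequence. Within 20 kb of it the pooled list had 2 regions, of which 1 was exonic, in Y116A8C.23, 15700 bp away, with a pooled signal of 31.9 (rank 721), a signal of 18.3 in replicate 1 (rank 1741) and no match in replicate 2. Y116A8C.23 was named for its place, after its values were seen. How far the transgene extends is not given in the sources used here. Around unc-119 the pooled list had 3 regions within 20 kb, 2 of them in the gene, and all 3 summits were in introns.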

How the data were processed

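The 2 replicates of 1 group were grouped by the labels. The deposited lists give, per region, a signal of the authors (scale not stated) and a −log10 q-value, from which q was computed here. Replicate lists, the pooled list and the IDR list were made by the authors on ce11, with the control entering the pooled calls, per the accompanying notes. The sources used here give no aligner, peak caller or IDR threshold, and ce10 lists were not used. Depth is unknown.

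Summits were placed on Ensembl release 115 and the RefSeq genome, both WBcel235. Exon kinds were assigned in the order 5′ UTR, coding, 3′ UTR, and a summit in a gene but no exon was intronic. Ranks run by signal over each whole list, and shares by rank were taken over nuclear regions. Presence needed an overlap of at least 1 bp, with the strongest overlapping region taken as the match. IDR membership was by identical coordinates. The elements were the 8-mer with the largest share difference between odd-rank IDR peaks and flanks, and the next that shares no 5-mer with it. Repeats were 31-mers. No test was made, because regions are not replicates. Intervals are Clopper-Pearson. Members and lists were chosen with earlier results of these data known. Named genes were hosts of the 20 strongest exonic regions, hosts with 3 or more, up to 3 members of each gene list, Y116A8C.19 and unc-119, and the report says which others were named after their values were seen. Of 379 symbols in the lists 375 matched the annotation. Placement, overlap and the element search were tested on simulated data. Alternatives changed the windows, exon definition, overlap, elements and replicates. Computations ran in Python 3.11.15 with pandas 2.3.3, NumPy 2.4.6 and SciPy 1.17.1, and plots were drawn with Matplotlib 3.10.9.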

Additional observations from a re-analysis of the deposited data

How the results depend on the processing

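Of 84 alternative values, 67 stayed within the interval of the reported value (shares and the median rank) or within 1.5 times of it (counts). The count of exonic regions ranged from 271 with windows of 2000 to 500 bp to 443 without replicate 1. With summits within 100 bp, presence was 82.0% in replicate 1, 65.1% in replicate 2 and 49.7% in both, against 58.8% in both for all pooled regions. With the best 2689 regions of each replicate alone it was 42.7%, 30.6% and 8.06%, against 19.5% in both for all. The exonic share of the strongest regions, 8% of the top 1000, was 5.5% with windows of 2000 to 500 bp, 5.8% with coding exons only, 3.6% of the 500 strongest and 0.505% of as many regions as the IDR list holds. With a replicate left out, and the best regions of the other taken in place of the pooled list, it was 9.7% to 12.9%, and the median rank was 1515 to 1666. The IDR list held 2 exonic regions with windows of 500 to 100 bp, 0 with coding exons only, and 0 with windows added at coding starts, an alternative chosen after seeing the data that left 326 exonic regions. An element lay in 0.269% by exact match and in 18.0% within 150 bp, against 4.65% and 24.1% of all pooled regions, IDR peaks included. The cause of these shifts was not tested, other than that stricter matching and shorter lists leave fewer regions by construction. No paired analysis was possible because there was 1 group. With no read counts, weak regions cannot be told from background.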
